A study of Mus musculus musculus x Mus musculus castaneus with 12 samples.

Results

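Male wild-type (wt) embryonic stem (ES) cells of the 2 reciprocal crosses between the mouse strains BL6 (C57BL/6J) and *cast* (*Mus castaneus*) were compared by bulk RNA-seq. The BC line has a BL6 mother and a *cast* father, and the CB line has a *cast* mother and a BL6 father. Every library that GEO labels as male and wt was taken, which gave 2 BC wt and 2 CB wt libraries, 4 of the 12 in the series. The study edited *Kdm6a*, an X-linked gene for a histone demethylase, and its 6 male knockout (KO) clones, 3 of each cross, and 2 wt libraries of a female BC line serve below as side values. Per the labels, KO replicates 1 and 2 of each cross carry an exonic deletion and replicate 3 a promoter deletion. The study also found an off-target deletion affecting *Sh3kbp1*, *Map3k15* and *Pdha1* in the BC exonic clones. All cells were grown with serum and leukemia inhibitory factor (LIF) on inactivated mouse embryonic fibroblasts, and plates were depleted of those feeders on gelatin before RNA was taken. Neither male wt group carries an edit, but the study states that its wt CB line carries an actin-GFP transgene. Each cross is thus represented by 1 male line, so cross, cell line, transgene, culture and sequencing depth cannot be told apart. The methods call the wt replicates biological, but neither they nor the labels say whether these were separate cultures, so p-values measure the spread between these libraries.

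Mouse ES cells grown with serum and LIF move between a naive state, held by LIF through STAT3 and by transcription factors such as OCT4, SOX2, NANOG and ESRRB, and states that resemble the epiblast just before gastrulation. Fibroblast growth factor (FGF) signals draw cells out of the naive state. Wnt and Nodal together turn on primitive streak genes such as *T*, from which mesoderm and endoderm arise.

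Fragments were counted on each gene from reads mapped to either parental genome. The BC wt libraries held 80880720 and 83497935 such fragments, and the CB wt libraries 51457763 and 51384489. Levels are given as FPKM, fragments scaled to gene length and, by TMM, to library size. A gene was called where the false discovery rate (FDR) of edgeR's quasi-likelihood test was under 0.05 and the change at least 1.5-fold. Of the fragments mapped to the BL6 genome, the counts used here kept 95.19% and 95.31% in BC and 97.87% and 97.85% in CB. This loss sits in few genes, and 653 of the 11399 genes tested (5.73%) kept unlike shares in the 2 lines, by more than 0.2 on the log2 scale. They are named as counted unlike below, with the value from BL6-genome fragments beside them. Replicates were close, with a Pearson correlation across genes of log2 levels of 0.998 in BC and 0.999 in CB. The median chi-square per gene between replicates was 2.79 in BC and 0.70 in CB. The mean was 32.84 in BC and 26.84 in CB, so some genes varied far more between replicates than the median gene.

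The ES cell label was met in all 4 libraries. *Pou5f1*, which encodes OCT4, was at 1080 FPKM in both BC wt replicates and at 775 and 757 FPKM in the CB wt replicates. *Sall4*, another pluripotency factor, was at 103 and 91.6 FPKM in BC and at 91.1 and 88.7 FPKM in CB. The parental labels were met as well. Of the fragments of *H19*, which is expressed from the maternal allele, those with BL6 SNPs numbered 2041 and 2014 in BC against 82 and 87 with *cast* SNPs. In CB the same gene gave 56 and 56 BL6-SNP fragments against 1842 and 1698 *cast*-SNP fragments. *Mest*, expressed from the paternal allele, gave 11 and 12 BL6-SNP and 818 and 755 *cast*-SNP fragments in BC, and 517 and 550 BL6-SNP and 5 and 4 *cast*-SNP fragments in CB. The allele with nearly all fragments was thus the BL6 allele for *H19* and the *cast* allele for *Mest* in BC, and the reverse in CB.

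Chromosomes 1 and 8 are given apart, because the BC line had an excess of BL6 fragments there. On chromosome 1 the BL6 share of SNP fragments, as the median over 616 genes, was 67.9% and 68.3% in the BC wt replicates and 52.6% and 52.5% in the CB wt replicates. On chromosome 8 it was 66.7% and 67.1% in BC and 52.0% and 51.8% in CB over 592 genes. Shares on the other 17 autosomes ran from 50.6% to 52.5% in BC libraries and from 47.1% to 52.7% in CB libraries. The expression difference followed the same chromosomes. The median gene was 1.39-fold higher in BC than in CB on chromosome 1 and 1.41-fold higher on chromosome 8, whereas the medians of the other autosomes lay between -0.02 and 0.13 (log2, CB minus BC). On chromosome 1, 296 of 741 tested genes were called lower in CB (39.9%) and 83 higher (11.2%). On chromosome 8, 299 of 706 were called lower (42.4%) and 59 higher (8.36%). The BL6 allele carried the difference. The BL6-SNP fragments of the median gene were 1.85-fold higher in BC on both chromosomes, and the *cast*-SNP fragments 0.979-fold on chromosome 1 and 1.00-fold on chromosome 8. In blocks of 10 Mb, 18 of 19 block medians on chromosome 1 and 13 of 13 on chromosome 8 lay below 0 (log2, CB minus BC). DNA copy number was not measured here.

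**Figure D1:**
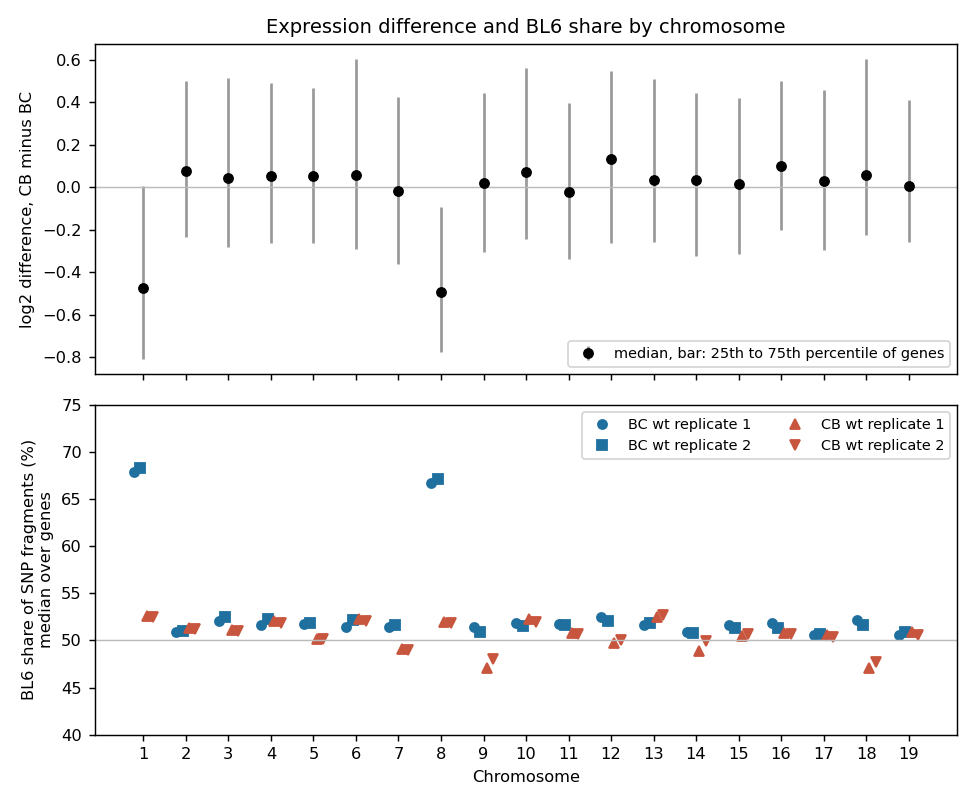
Upper panel: median log2 difference CB minus BC of the tested genes of each autosome, with bars from the 25th to the 75th percentile. Lower panel: BL6 share of SNP fragments in percent, as the median over genes, in each of the 4 wt libraries. Chromosomes 1 and 8 sit at -0.475 and -0.492, and only there do the BC libraries reach shares between 66.7% and 68.3%.

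The BL6 share also differed among the other libraries on these chromosomes. Over 584 genes of chromosome 1, it was 67.8%, 68.2% and 67.7% in the 3 BC KO clones and 48.3% and 48.4% in the female BC wt replicates. The CB KO clones gave 68.4%, 35.3% and 48.7% on chromosome 1. Over 564 genes of chromosome 8, the BC KO clones gave 51.1%, 51.6% and 67.7%, the CB KO clones 51.8%, 51.5% and 45.4%, and the female replicates 44.2% and 44.5%. The high BL6 share on chromosome 1 was thus seen in all 5 male BC libraries and in 1 CB KO clone, and that on chromosome 8 in both BC wt libraries and 1 BC KO clone.

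Off chromosomes 1 and 8, 2360 of 11399 tested autosomal genes were called higher in CB (20.7%) and 1271 lower (11.2%). The median log2 difference of all of them was 0.041. Among the 10746 genes counted alike, 2150 were called higher and 1185 lower. With fragments of each genome counted apart, 2170 of the 2360 higher genes (91.9%) and 1133 of the 1271 lower genes (89.1%) were called in both counts. Ranked by increase, the first 12 called genes at 5 TPM or more were all counted unlike. *Mif*, which encodes a cytokine, was at 0.63 and 0.314 FPKM in BC and at 175 and 170 FPKM in CB, but its log2 difference of 8.53 was -0.77 with BL6-genome fragments. *Ftl1*, the ferritin light chain, gave 7.75 against -0.18, and *Rpl6*, a ribosomal protein gene, 6.80 against 0.13. These differences changed with the genome counted, and genes counted unlike are left out of the ranking that follows, a choice made after their values were seen.

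Among the genes counted alike, several of the largest increases in CB were in genes of secreted signals. *Wnt7a*, a Wnt ligand, was at 0.152 and 0.150 FPKM in BC and at 3.37 and 2.98 FPKM in CB, 21.2-fold higher. *Wnt4*, another ligand of that family, was at 0.384 and 0.354 FPKM in BC and at 6.44 and 6.34 FPKM in CB. *Nog*, which encodes the BMP antagonist noggin, was at 0.314 and 0.431 FPKM against 6.87 and 6.65 FPKM. These 3 were named for the size of their change, so the gap between BC and CB replicates follows from that choice. *Edn1*, the vasoconstrictor peptide endothelin 1, was 15.8-fold higher in CB, and *Efemp1*, an extracellular matrix protein, 20.1-fold. Adjusted p values of these 5 genes lay between 4.29e-07 and 1.9e-06 (edgeR).

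The largest decrease among the genes counted alike was in *Olig2*, a transcription factor of the oligodendrocyte and motor neuron lineages, at chr16:91225457-91228677 (GRCm38). It was at 12.9 and 12.5 FPKM in BC and at 0.0609 and 0.0383 FPKM in CB, a log2 difference of -7.97 (standard error 0.13, edgeR adjusted p = 4.29e-07). Its neighbour *Olig1* was at 11.2 and 12.8 FPKM in BC and at 0.16 and 0.108 FPKM in CB, 88.1-fold lower. Both genes were thus nearly silent in both CB replicates. In BC the fragments came from the BL6 allele. *Olig2* gave 610 and 598 BL6-SNP fragments in the BC replicates against 0 and 3 *cast*-SNP fragments, and *Olig1* 361 and 521 against 2 and 2. The BL6 allele is the maternal one in BC, and allele and parent of origin cannot be told apart here, since CB had 0 and 0 BL6-SNP and 2 and 0 *cast*-SNP fragments of *Olig2*.

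Other large decreases were in *Halr1*, a long noncoding RNA of the *Hoxa* region (25.9 and 21.7 FPKM in BC, 1.47 and 1.33 in CB), and in *Itpr2*, a calcium channel of the endoplasmic reticulum (2.71 and 2.51 against 0.239 and 0.204). *Dpp4*, a surface peptidase, was 7.55-fold lower and *Cpne5*, a calcium-binding copine, 7.93-fold lower. The 2 groups did not overlap for any of these genes, which follows from their choice by size of change. Of all 11399 tested genes, 7918 had an FDR under 0.05 without the fold threshold. *Gc*, the vitamin D-binding protein gene, was at 5.75 and 6.41 FPKM in BC and at 0.0107 and 0.0538 FPKM in CB. It is counted unlike, but its log2 difference was -7.50 with all fragments and -7.77 with BL6-genome fragments.

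On chromosomes 1 and 8, genes that went against the shift of their chromosome included *F5* on chromosome 1, coagulation factor V, at 0.303 and 0.272 FPKM in BC and at 3.59 and 3.67 in CB, and *Acta1* on chromosome 8, skeletal muscle actin, at 2.36 and 2.01 against 36 and 35.6. *Col4a1* and *Col4a2*, adjacent genes for basement membrane collagen on chromosome 8, were 4.44-fold and 6.09-fold higher in CB. *Inhbb* on chromosome 1, the subunit of activin B, was at 3.77 and 3.35 FPKM in BC and at 0.317 and 0.369 in CB, 10.3-fold lower. *Mt3* on chromosome 8, a metallothionein, was at 24.8 and 15.8 FPKM in BC and at 2.73 and 3.08 in CB, 6.91-fold lower. Both fell by more than the median gene of their chromosome.

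Naive pluripotency genes were lower in CB more often than higher. Of the 25 listed, 19 lie off chromosomes 1 and 8 and were tested, and 6 of these were called lower and 1 higher, with a median log2 difference of -0.32 against 0.041 for all tested genes. Of the 6 on chromosomes 1 and 8, 5 were called lower and none higher, where 39.9% and 42.4% of all tested genes were called lower. Off these chromosomes 20.7% of all tested genes were called higher and 11.2% lower. Each list count in wt libraries here and below is to be read beside these shares. *Sox2*, a core pluripotency factor, was at 432 and 375 FPKM in BC and at 135 and 138 FPKM in CB, 2.92-fold lower (edgeR adjusted p = 6.81e-06). *Tcl1*, an AKT cofactor, was at 29.9 and 32.9 FPKM against 11.3 and 10.8, and *Esrrb*, an orphan nuclear receptor, at 114 and 105 against 66.9 and 66.2. *Sox2* fell on both alleles, with a CB to BC ratio of 0.408 for BL6-SNP and 0.331 for *cast*-SNP fragments scaled to library size. *Tet2*, *Manba* and *Fgf4* were 1.83-fold, 1.75-fold and 1.60-fold lower in CB.

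Of the naive genes on the shifted chromosomes, *Gbx2* on chromosome 1, a homeobox factor, was at 36.3 and 38.9 FPKM in BC and at 7.09 and 6.67 in CB, 5.42-fold lower. *Klf2* on chromosome 8, a Krüppel-like factor, was at 127 and 144 FPKM in BC and 42.5 and 43 in CB, 3.14-fold lower, and *Nr5a2* on chromosome 1, an orphan receptor, 3.11-fold lower. These folds are above the 1.39-fold and 1.41-fold of the median genes of their chromosomes. *Zfp42* on chromosome 8 and *Prdm14* on chromosome 1 were each about 1.5-fold lower, near those medians, and both calls were lost under several of the settings tried.

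Not every naive factor was lower. *Tbx3*, a T-box factor, was at 2.85 and 2.53 FPKM in BC and at 4.63 and 4.57 in CB, 1.73-fold higher and the only naive gene called higher. *Pou5f1* differed by -0.48 and *Klf4* by -0.28 on the log2 scale, both under the 1.5-fold threshold. *Nanog* was at 77.2 and 88.2 FPKM in BC and at 117 and 117 in CB. It was not called and is counted unlike, with a log2 difference of 0.51 from all fragments and 0.05 from BL6-genome fragments. Its BL6-SNP fragments were 2.62-fold higher in CB and its *cast*-SNP fragments 0.823-fold.

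Genes of the LIF and STAT3 pathway were called in both directions, 4 higher and 4 lower of 12 tested. The receptor gene *Lifr* was at 9.42 and 7.71 FPKM in BC and at 4.02 and 4.02 in CB, 2.11-fold lower. The target and feedback inhibitor *Socs3* was at 40.5 and 39.4 FPKM in BC and at 19.5 and 19.5 in CB, 2.03-fold lower, and *Bcl3*, another target, 2.32-fold lower. *Stat3* itself was 1.51-fold lower, with its call lost when either BC replicate 1 or CB replicate 1 was left out (log2 -0.54 and -0.57). The kinase *Jak2* was higher in CB, at 4.78 and 5.05 FPKM against 1.37 and 1.55 in BC, and *Jak1* 1.57-fold higher. The other members called higher were *Ptpn11*, a phosphatase, 1.52-fold, and *Stat5a*, 1.61-fold at levels of at most 0.827 FPKM. The call of *Ptpn11* was lost without BC replicate 2 (log2 0.53), and that of *Stat5a* with the variance of all 12 libraries.

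Formative and primed epiblast genes did not move as a group. Of 22 tested, 5 were called higher and 2 lower, with a median of -0.04. These counts are near the shares of all tested genes, 20.7% and 11.2%. *Fgf5*, the usual marker of the post-implantation epiblast, was at 6.29 and 6.59 FPKM in BC and at 34.2 and 35.3 FPKM in CB, 5.45-fold higher (edgeR adjusted p = 6.3e-07), and the increase was seen on both alleles (4.86-fold in BL6-SNP and 5.27-fold in *cast*-SNP fragments). *Car4*, a carbonic anhydrase, was at 24.2 and 21.8 FPKM against 52.9 and 51.4, and *Cdh2*, N-cadherin, at 2.41 and 2.16 against 5.14 and 4.93. In contrast, *Foxd3*, a forkhead factor, and *Dnmt3a*, a de novo DNA methyltransferase, were 1.91-fold and 1.53-fold lower in CB. Both calls were lost with the variance of all 12 libraries, and that of *Dnmt3a* also without BC replicate 1 (log2 -0.54). *Otx2* and *Dnmt3b*, which also rise as cells leave the naive state, differed by -0.42 and 0.44 on the log2 scale and were not called.

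**Figure D2:**
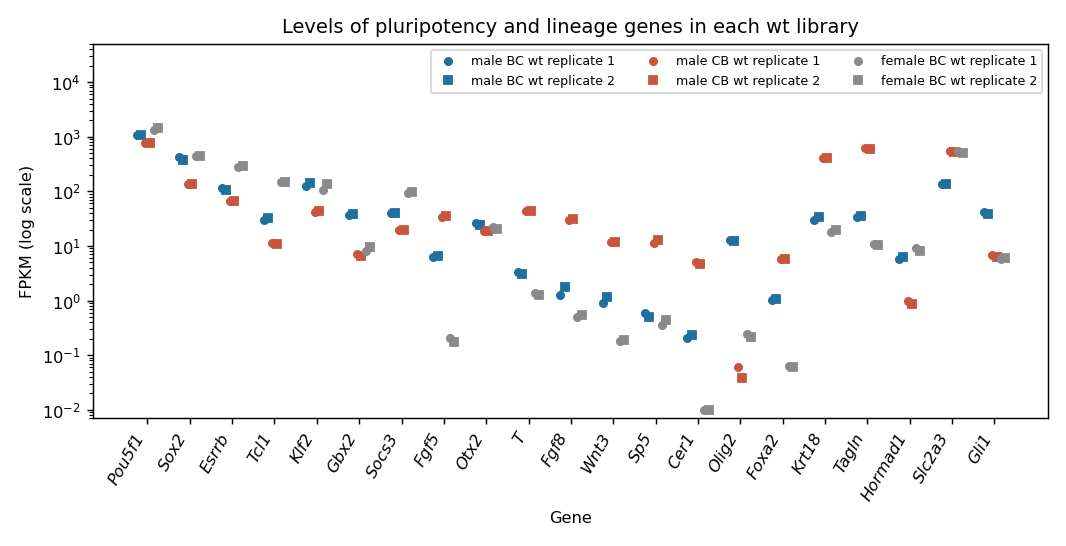
Level in FPKM (log axis) of named genes in each male BC wt, male CB wt and female BC wt library, with 1 point per library and the 2 libraries of *Cer1* at 0 drawn at the lower edge. CB points of *T*, *Fgf8*, *Wnt3*, *Sp5* and *Cer1* lie above all BC points, and *Olig2* is above 12 FPKM only in the male BC libraries.

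Primitive streak genes were broadly higher in CB. Of 14 mesendoderm genes tested, 11 were called higher and 1 lower, with a median of 2.40. *T*, brachyury, was at 3.32 and 3.05 FPKM in BC and at 43.1 and 42.8 FPKM in CB, 13.6-fold higher (log2 3.77, standard error 0.062, edgeR adjusted p = 4.29e-07). *Fgf8*, a ligand of the streak, at chr19:45736798-45742915, was at 1.28 and 1.75 FPKM against 30.3 and 31.8, 20.6-fold higher. *Wnt3*, the ligand needed to form the streak, was at 0.916 and 1.16 FPKM against 11.7 and 11.8, 11.4-fold higher. CB replicates lay far above both BC replicates for each of these genes, which were named for the size of their change.

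*Eomes*, a T-box factor of mesendoderm, was at 3.7 and 3.89 FPKM in BC and at 11.6 and 11.7 in CB. *Gsc* and *Lhx1*, organizer factors, were 5.48-fold and 6.31-fold higher at levels of at most 2.44 FPKM, and *Kdr*, a receptor of early mesoderm, 5.97-fold higher at levels of at most 0.76 FPKM. *Mixl1*, the member on chromosome 1, was at 0.951 and 1.01 FPKM in BC and at 4.16 and 4.25 in CB. *Mesp2*, a factor of somite formation, was the 1 member called lower, 2.47-fold. *T* and *Wnt3* rose on both alleles, *T* by 16.7-fold in BL6-SNP and 10.6-fold in *cast*-SNP fragments, *Wnt3* by 11.6-fold and 10.9-fold. With the variance of all 12 libraries the count fell from 11 to 7, as *Gsc*, *Lhx1*, *Cdx2* and *Hand1* were no longer called.

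Wnt target genes were called higher in 6 of 17 tested and lower in 1, with a median of 0.33. *Sp5*, a zinc finger factor that Wnt signals induce, was at 0.586 and 0.493 FPKM in BC and at 11.5 and 12.6 in CB, 22.5-fold higher. *Axin2*, a feedback inhibitor, was at 1.68 and 1.57 FPKM against 10.2 and 9.91, and *Tnfrsf19*, a receptor of the TNF family, at 3.38 and 3.52 against 10.8 and 10.8. *Dkk1*, a secreted Wnt inhibitor, was 8.25-fold higher but at most 0.511 FPKM. *Notum*, which also inhibits Wnt ligands, was at 6.01 and 5.75 FPKM in BC and at 3.44 and 3.28 in CB, the 1 target called lower.

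Nodal and BMP genes were called higher in 4 of 16 tested and lower in 1, near the 20.7% and 11.2% of all tested genes. *Cer1*, a Nodal and BMP inhibitor of the anterior endoderm, was at 0.204 and 0.231 FPKM in BC and at 4.99 and 4.59 in CB, 22.1-fold higher. *Lefty2* on chromosome 1, a Nodal inhibitor, was at 45.4 and 45.6 FPKM against 96.9 and 95.8 (counted unlike, log2 1.10 against 0.76 with BL6-genome fragments). *Id1*, a BMP target, fell from 178 and 202 FPKM in BC to 58.3 and 58.7 in CB, 3.21-fold lower.

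Genes of FGF and ERK feedback divided. Of 19 tested, 6 were called higher and 4 lower. *Jun*, an immediate early factor, was at 6.21 and 6.51 FPKM in BC and at 20.3 and 20.7 in CB, 3.25-fold higher, *Phlda1* was 3.65-fold higher and *Spry1*, a feedback inhibitor, 2.28-fold higher. The other Sprouty gene *Spry4* was at 55.4 and 44.7 FPKM in BC and at 21.3 and 21.4 in CB, 2.32-fold lower. *Etv4*, a transcription factor downstream of ERK, was 2.15-fold lower, *Egr1*, an immediate early factor, 2.18-fold lower and *Myc* 1.55-fold lower. With the variance of all 12 libraries, *Spry4* was the only 1 of these 4 still called lower.

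Neural progenitor genes were also called in both directions, 4 higher and 5 lower of 10 tested. *Nes*, the filament protein nestin, was at 9.28 and 7.83 FPKM in BC and at 34.9 and 34.1 in CB, 4.07-fold higher. *Pax6*, a homeobox factor, was at 2.35 and 2.32 FPKM against 0.761 and 0.893, 2.80-fold lower, and *Sox1* on chromosome 8, an early neural factor, at 3.64 and 3.38 against 0.462 and 0.634, 6.34-fold lower. *Olig1* and *Olig2*, given above, were lower in CB as well. Only some of the called members are named here, so they show no pattern of the list. With a 5 TPM minimum, 1 member was called higher and 2 lower. In bulk RNA, fewer cells of a type and less RNA per cell cannot be told apart.

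Primitive endoderm genes were called higher in 7 of 14 tested and lower in none, with a median of 0.63, and in 4 of 5 on chromosomes 1 and 8. On those 2 chromosomes 11.2% and 8.36% of all tested genes were called higher. *Foxa2*, a forkhead factor of endoderm, was at 1.01 and 1.05 FPKM in BC and at 5.76 and 5.8 in CB, 5.67-fold higher. *Lrp2*, the endocytic receptor megalin, was at 6.89 and 6.07 FPKM against 18.7 and 18, and *Sparc*, a matrix glycoprotein, at 82.6 and 73.2 against 217 and 213. The lineage regulators were low in all 4 libraries. *Gata6* was at 0.271 and 0.264 FPKM in BC and at 0.875 and 0.936 in CB, *Sox17* on chromosome 1 at most 0.41 FPKM, and *Gata4* at 1.29 and 1.15 against 1.31 and 1.38, not called. The increase of *Sparc* lay in *cast*-SNP fragments, with a CB to BC ratio of 4.52 against 0.831 for BL6-SNP fragments.

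Keratin genes were far higher in CB. Of 15 trophoblast and epithelial genes tested, 10 were called higher and none lower, with a median of 1.22. *Krt18*, a simple epithelial keratin, was at 30.5 and 33.4 FPKM in BC and at 409 and 409 FPKM in CB, 12.9-fold higher. *Krt19* was at 4.46 and 4.55 FPKM against 46.8 and 44.2, and *Krt7* at 0.685 and 0.708 against 7.52 and 7.81. The partner keratin *Krt8* is counted unlike and was higher by 4.05 on the log2 scale with all fragments and by 3.75 with BL6-genome fragments. *Krt18* rose on both alleles, by 11-fold in BL6-SNP and 12.3-fold in *cast*-SNP fragments. *Cldn4*, a tight junction protein, was 2.94-fold higher. The trophoblast factors were low, *Cdx2* at 0.993 and 0.835 FPKM in BC and at 2.09 and 2.13 in CB, *Gata3* at most 0.965 and *Hand1* at most 1.92 FPKM.

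Feeder fibroblast markers moved in the same direction, and their part in the differences above was not tested. Of 17 tested, 14 were called higher in CB and 1 lower, with a median of 1.42, and the summed level of the list was 106 and 102 FPKM in BC and 996 and 980 in CB. Most of that sum was *Tagln* and *Acta2*, and without them it was 55.6 and 50.5 FPKM in BC and 124 and 123 in CB. *Col1a1*, the main fibrillar collagen, was at 3.21 ± 0.46 FPKM (SD, n = 2) in BC and 19.7 ± 0.95 FPKM (SD, n = 2) in CB, 6.21-fold higher. *Col1a2*, its partner chain, was at 1.08 and 0.979 FPKM against 1.03 and 1.01, not called, and *Thy1* at 7.88 and 7.61 against 5.23 and 4.74. *Thy1* was the 1 marker called lower, a call lost without CB replicate 2 (log2 -0.55) and with the variance of all 12 libraries. *Lum* was at most 0.114 FPKM and *Prrx1* at most 0.070 FPKM in the 4 libraries. Most of the 14 markers called higher are not named here. On chromosomes 1 and 8, 3 of 4 tested markers were called higher and 0 lower. The 2 chains of collagen I thus differed in their response. *Col1a1* rose by 8.30-fold in *cast*-SNP and 2.74-fold in BL6-SNP fragments. The strain of the feeders is not given in the sources used here.

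Actin and contractile genes rose as broadly. This list was drawn up after *Tagln* and *Acta2* had been seen, so its count describes a choice. It shares these genes with the feeder list. Of 21 tested, 17 were called higher and none lower, with a median of 2.33. *Tagln*, the actin-binding protein transgelin, was at 34.5 and 36.0 FPKM in BC and at 621 and 607 FPKM in CB, 17.6-fold higher (edgeR adjusted p = 2.5e-07). *Acta2*, smooth muscle actin, was at 16.2 and 15.9 FPKM against 251 and 250, and *Actc1*, cardiac actin, at 0.439 and 0.38 against 10.6 and 9.89, 25.2-fold higher. *Thbs1*, the matrix protein thrombospondin 1, was at 7.29 and 6.41 FPKM against 88.7 and 87.5, and *Tpm1*, a tropomyosin, at 70.5 and 80.9 against 491 and 494. *Tgfb1i1* and *Cnn2*, an adaptor and a calponin of actin fibres, were 14.4-fold and 5.81-fold higher. Each of these was high in both CB replicates and low in both BC replicates, which follows from their choice. *Tagln* rose on both alleles, by 14.2-fold in BL6-SNP and 15.5-fold in *cast*-SNP fragments, *Tpm1* more in *cast*-SNP fragments (7.62-fold against 2.78-fold).

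**Figure D3:**
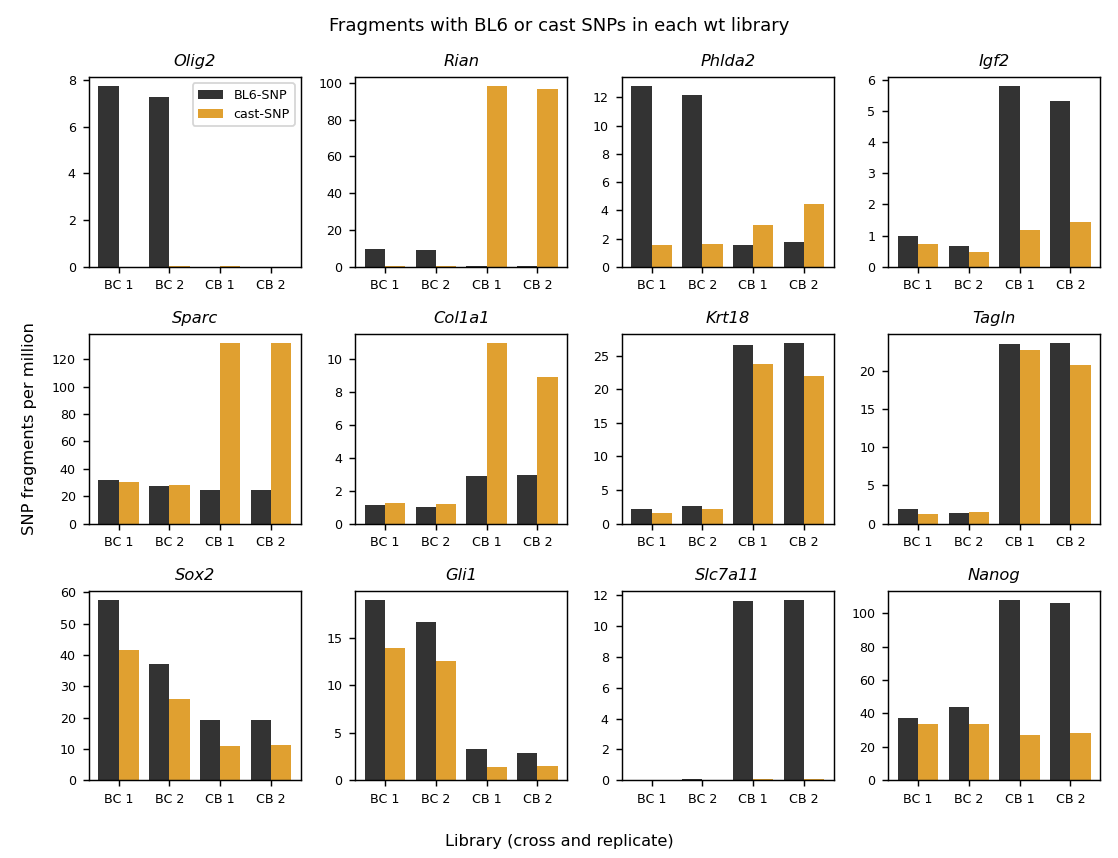
Fragments with BL6 or *cast* SNPs, scaled to library size (linear axes from 0, each gene with its own scale) in each of the 4 wt libraries for 12 genes. *Krt18* and *Tagln* are high in CB on both alleles, *Sox2* and *Gli1* low in CB on both, *Olig2* comes from the BL6 allele of BC, *Slc7a11* from the BL6 allele of CB, and *Rian* from the maternal allele of each line.

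The Hedgehog targets named here were lower in CB. The list was added after the values had been seen. Hedgehog ligands act through the receptor PTCH1 and the transducer SMO on the GLI factors, and *Gli1*, *Ptch1* and *Hhip* are among the usual targets. *Gli1* was at 41.6 and 38.8 FPKM in BC and at 6.71 and 6.41 in CB, 6.07-fold lower (edgeR adjusted p = 6.3e-07), and *Ptch1* at 43.3 and 38.7 against 9.52 and 8.96, 4.39-fold lower. *Hhip* on chromosome 8, at most 0.727 FPKM, was 5.64-fold lower. *Gli1* fell on both alleles, with CB to BC ratios of 0.172 in BL6-SNP and 0.111 in *cast*-SNP fragments. *Smo* and *Gli3*, the transducer and a repressor of the pathway, were 1.89-fold and 2.42-fold higher in CB. Over the 9 members tested off chromosomes 1 and 8, 4 were called higher and 3 lower.

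In energy metabolism, genes of oxidative phosphorylation that were called were nearly all lower in CB. Of 61 tested, 12 were called lower and 1 higher, with a median of -0.33, and 9 of 9 on chromosomes 1 and 8 were called lower. On these chromosomes 39.9% and 42.4% of all tested genes were lower, and the median of the 9 was -0.84 against chromosome medians of -0.475 and -0.492. *Ndufa3* of complex I was at 98.8 and 81.5 FPKM in BC and at 42.4 and 41.2 in CB, *Cox7a2* of complex IV at 271 and 276 against 143 and 145, and *Uqcr10* of complex III at 198 and 209 against 128 and 127. The 1 member called higher, *Atp5k*, is counted unlike, and its log2 difference was 1.34 with all fragments and -0.70 with BL6-genome fragments. Without the fold threshold, 47 of the 61 were lower and 2 higher at an unadjusted edgeR p under 0.05, where 32.4% of all tested genes were lower and 39.6% higher. Of the 17 tested genes of the tricarboxylic acid cycle, 0 were called by edgeR and 0 by DESeq2, 4 were higher and 2 lower at an unadjusted edgeR p under 0.05, and the median was 0.06.

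Glycolysis genes were called higher in 7 of 22 and lower in 3, and among the 18 counted alike in 5 and 2. The glucose transporters were higher in CB. *Slc2a3* was at 137 and 135 FPKM in BC and at 540 and 536 in CB, 3.99-fold higher, and *Slc2a1* at 161 and 149 against 333 and 328. *Pfkfb3*, whose product activates phosphofructokinase, was 2.75-fold higher, whereas the phosphofructokinase genes *Pfkm* and *Pfkp* were each 2.03-fold lower. Of the hypoxia-responsive genes, 2 of 19 were called higher and 5 lower. *Egln3*, an oxygen sensor, was at 32 and 32.8 FPKM in BC and at 9.13 and 8.79 in CB, *Vegfa* at 12 and 10.9 against 6.03 and 5.93, and *Plod2*, a collagen hydroxylase, at 28.7 and 30.3 against 47.1 and 48.0.

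Cholesterol synthesis genes were called higher in 11 of 20 tested and lower in none, with a median of 0.61, and in 9 of the 16 counted alike. At an unadjusted edgeR p under 0.05, 19 of the 20 were higher and 0 lower, against 39.6% and 32.4% of all tested genes. *Hmgcs1*, which makes the precursor HMG-CoA, was at 85.4 and 85.5 FPKM in BC and at 139 and 139 in CB, *Sqle* at 55.7 and 60.7 against 93.3 and 95.3, and *Cyp51* at 29.3 and 29.9 against 47.9 and 49.2. These 3 increases lay between 1.64-fold and 1.66-fold. Of 20 genes of fatty acid synthesis and oxidation, 3 were called higher and none lower, where 20.7% and 11.2% of all tested genes were. Among the 3 were *Elovl1*, a fatty acid elongase (2.99-fold), and *Scd2*, a desaturase (1.67-fold). Lysosomal genes were called higher in 6 of 18 and lower in none, with a median of 0.48. *Ctsd*, cathepsin D, was at 75.4 and 82.6 FPKM in BC and at 166 and 162 in CB, and *Hexa*, a hexosaminidase subunit, was 2.03-fold higher.

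Serine and one-carbon genes were called lower in CB more often than higher. Of 20 tested, 6 were called lower and 2 higher, with a median of -0.18. *Mthfd2*, a mitochondrial folate enzyme, was at 121 and 123 FPKM in BC and at 56.8 and 54.9 in CB, 2.16-fold lower. *Psat1* of serine synthesis was at 217 and 224 FPKM against 109 and 110, *Shmt2*, which passes the serine carbon to folate, at 140 and 136 against 73.0 and 71.1, and *Tdh*, threonine dehydrogenase, at 196 and 215 against 108 and 107. *Phgdh*, 1 of the 2 genes called higher, is counted unlike, at log2 1.34 with all fragments and -0.65 with BL6-genome fragments. The other, *Cth*, was at 40.9 and 43.7 FPKM in BC and at 72.6 and 73.6 in CB.

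Targets of ATF4, the transcription factor of the amino acid stress response, were called lower in 8 of 18 and higher in 1, with a median of -0.40. *Atf4* itself was at 290 and 322 FPKM in BC and at 174 and 173 in CB, 1.75-fold lower. *Chac1*, a glutathione-degrading enzyme, was at 16.3 and 16.3 FPKM against 3.8 and 3.85, 4.23-fold lower, and *Trib3* and *Nupr1* were 2.14-fold and 3.31-fold lower. *Asns*, asparagine synthetase, was at 113 and 120 FPKM against 111 and 112 and was not called. The 1 member called higher was *Slc7a11*, the cystine transporter, at 0.0743 and 0.0779 FPKM in BC and 1.36 and 1.37 in CB. It is counted unlike, but all 3 counts gave a log2 increase of 2.98 or more, and its CB fragments were 602 and 601 with BL6 SNPs against 5 and 3 with *cast* SNPs. NRF2 and pentose phosphate genes were called higher in 1 of 12, again *Slc7a11*, and lower in 1, *Gsta4*, a glutathione transferase (1.58-fold).

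Germline genes that DNA methylation normally silences were lower in CB in 13 of 16 tested and higher in none, with a median of -1.07. On chromosomes 1 and 8, 4 of 4 were lower, with a median of these 4 of -1.37. Of all tested genes, 11.2% were called lower off these chromosomes and 39.9% and 42.4% on them. *Hormad1*, a meiotic chromosome axis protein, was at 5.66 and 6.22 FPKM in BC and at 0.994 and 0.847 in CB, 6.38-fold lower. *Syce1* and *Sycp1*, proteins of the synaptonemal complex, were 4.10-fold and 3.81-fold lower, and *Piwil2*, a PIWI protein, at 5.0 and 4.93 FPKM against 1.61 and 1.72, 2.95-fold lower. All 4 were lower in both CB replicates than in either BC replicate, which follows from their choice by size of change. Of 22 genes of DNA methylation and Polycomb, 7 were called lower and 2 higher, with a median of -0.38. *Tet1*, a 5-methylcytosine oxidase, was at 47.6 and 38.1 FPKM in BC and at 22.9 and 22.3 in CB, and *Jarid2* and *Eed*, subunits of the Polycomb complex PRC2, were 1.85-fold and 1.63-fold lower. *Tet3* was 1.58-fold higher, a call lost without BC replicate 2 (log2 0.45). Of the 2-cell-like genes, 3 were tested, with 1 called higher (*Arg2*, arginase 2, at 0.338 and 0.368 FPKM in BC at 1.64 and 1.68 in CB) and none lower. These counts rest on the filter, since 7 of the listed genes were called lower with no filter on low values and the call of *Arg2* was lost at a 5 TPM minimum.

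Imprinted genes were called higher in CB in 20 of 46 tested and lower in 4, with a median of 0.32. The maternally expressed RNAs of the *Dlk1-Meg3* domain on chromosome 12 were among them. *Meg3* was at 1.96 and 1.66 FPKM in BC and at 16.3 and 16.6 in CB, 9.18-fold higher, *Rian* at 2.65 and 2.65 against 27.8 and 27.5, and *Mirg* at 1.73 and 1.68 against 14.4 and 14.2. In both lines, their SNP fragments came nearly all from the maternal allele. *Rian* gave 777 and 759 BL6-SNP and 19 and 27 *cast*-SNP fragments in BC, and 12 and 14 BL6-SNP and 5094 and 4971 *cast*-SNP fragments in CB. *Igf2*, a paternally expressed growth factor, was at 4.67 and 3.39 FPKM against 18.1 and 17.4. *Igf2* gave 78 and 54 BL6-SNP and 57 and 39 *cast*-SNP fragments in BC, thus from both alleles, and 301 and 274 against 61 and 74 in CB. *Peg10*, a paternally expressed retrotransposon-derived gene, was 2.26-fold higher in CB.

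*Phlda2*, a maternally expressed growth repressor, was the imprinted gene with the largest decrease, at 138 and 161 FPKM in BC and at 54.2 and 57.5 in CB, 2.65-fold. Its fragments from the maternal allele, not scaled to library size, numbered 1006 and 1003 in BC (BL6 SNPs) and 152 and 228 in CB (*cast* SNPs). Those from the paternal allele numbered 122 and 131 in BC (*cast* SNPs) and 80 and 90 in CB (BL6 SNPs). *Nap1l5*, *Jade1* and *Ddc* were the others called lower, with log2 differences of -0.93, -0.89 and -1.07. *Grb10*, expressed from the maternal allele, was at 70.9 and 66.2 FPKM against 76.6 and 76.8 and was not called.

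Targets of p53 were called higher in 9 of 20 and lower in none, with a median of 0.48. *Perp*, a desmosome protein, was at 11.4 and 12.7 FPKM in BC and at 61.4 and 62.4 in CB, 5.17-fold higher, and *Plk2*, a kinase, at 13.1 and 13.1 against 62.4 and 63.6, 4.85-fold higher. Both rose on both alleles, *Perp* by 4.79-fold in BL6-SNP and 6.45-fold in *cast*-SNP fragments. The cell cycle inhibitor *Cdkn1a* and the p53 ligase *Mdm2* were 1.73-fold and 1.64-fold higher. Interferon and MHC class I genes were called higher in 11 of 21 and lower in 2, and among the 17 counted alike in 7 and 2. *Tapbp*, which loads peptides onto class I, was at 6.79 and 6.11 FPKM in BC and at 34.1 and 33.9 in CB, *Psmb8*, an immunoproteasome subunit, at 1.45 and 1.57 against 7.05 and 6.3, and *B2m* at 17.8 and 17.2 against 39.6 and 37.6. The class I genes *H2-K1* and *H2-D1* are counted unlike, at 4.54 and 7.28 on the log2 scale with all fragments and 1.38 and 1.39 with BL6-genome fragments. Genes of the aryl hydrocarbon receptor were called higher in 3 of 7 and lower in 2. *Cyp1a1* and *Cyp1b1*, its classical targets, were at most 0.08 and 1.06 FPKM in BC and at least 1.21 and 3.68 FPKM in CB, and *Aldh3a1* was 4.76-fold lower in CB.

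**Figure D4:**
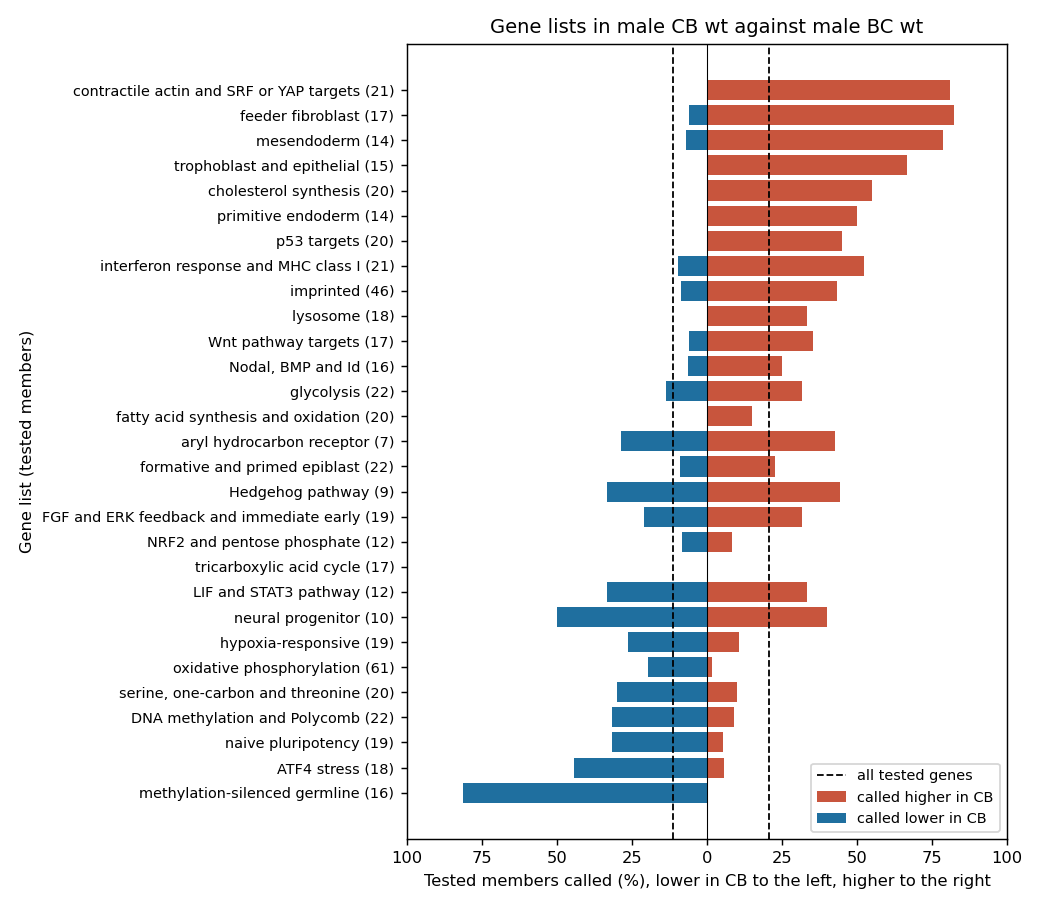
Share of the tested members of each gene list, off chromosomes 1 and 8, that were called lower (left) or higher (right) in CB wt than in BC wt, in percent, with tested members in parentheses and the shares of all tested genes, 11.2% and 20.7%, as dashed lines. The lists of contractile, feeder, mesendoderm and epithelial genes extend farthest to the right, and that of germline genes farthest to the left.

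The KO clones gave the same comparison of lines in libraries that the wt comparison did not use, though from the same 2 parental lines. *Kdm6a* was between 18.5 and 19.9 FPKM in the 4 wt libraries and at most 5.17 FPKM in any KO clone. Off chromosomes 1 and 8, 910 of 11674 genes were called higher in the CB KO clones than in the BC KO clones (7.8%) and 629 lower (5.39%). Of the 2150 genes counted alike and called higher in CB wt, 2099 were tested in KO clones, and 1877 of them had the same sign (89.4%), 633 were called in the same direction (30.2%) and 3 in the opposite one. Of the 1185 called lower in CB wt, 1170 were tested, with 1089 of the same sign (93.1%), 350 called (29.9%) and 3 called the other way. These genes were chosen by their wt calls. Chosen instead by their calls in KO clones, 633 of 717 higher genes (88.3%) and 350 of 554 lower genes (63.2%) that were tested in wt were also called there in the same direction. Medians were larger in size in the cells that chose the genes in 3 of the 4 cases, at 1.10 in wt and 0.62 in KO for higher and -0.93 and -0.69 for lower wt calls, and -1.03 in KO and -0.73 in wt for lower KO calls. Higher KO calls had a median of 1.27 in KO and 1.49 in wt. The counts moved with the clones. Higher calls numbered 442 without BC KO replicate 2, 551 without replicate 3, 606 without CB KO replicate 2 and 554 without replicate 3. Lower calls numbered 234 and 315 without BC KO replicates 2 and 3, and 245, 362 and 339 without CB KO replicates 1, 2 and 3. Per the methods, 1 edit gave rise to both the first and the second of the BC KO clones. With these 2 averaged, 714 genes were called higher and 470 lower.

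Individual KO clones varied more than wt replicates. *Olig2* kept its difference, at 12.3, 27.6 and 10.2 FPKM in the BC KO clones and at 0.196, 0.055 and 0.0568 FPKM in the CB KO clones. *T* was at 2.04, 1.35 and 1.5 FPKM in BC KO and at 13.4, 75.2 and 9.87 in CB KO, and *Fgf8* at 0.704, 0.563 and 1.02 against 4.25, 39.3 and 3.66. CB KO replicate 2 was the highest clone for both, and the lines did not overlap for any of these 3 genes. *Tagln* was at 54.4, 6.43 and 35.6 FPKM in BC KO and at 224, 352 and 591 in CB KO, whereas *Acta2* ranged from 1.77 to 22.3 FPKM and from 17.6 to 365 FPKM, which overlap, and was not called. *Slc2a3* overlapped as well, at 170, 124 and 236 FPKM against 162, 396 and 311. *Gli1* was called lower again, at 49, 45.1 and 44.9 FPKM against 23.3, 29.0 and 18, with a log2 difference of -0.99 against -2.60 in wt (edgeR adjusted p of the interaction = 0.0554).

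Lists followed in part. Off chromosomes 1 and 8, 7.8% of all genes tested in KO clones were called higher and 5.39% lower, and the counts here are to be read beside these shares. In the KO clones, 6 of 14 mesendoderm genes were called higher and none lower, and 19 of the 21 contractile genes, beside 3 of 17 feeder markers and 2 of 20 cholesterol genes. Naive genes were called lower in 6 of 19 and higher in none, germline genes lower in 4 of 16, and ATF4 targets lower in 15 of 18. Formative genes were called higher in 8 of 22 and lower in none, with a median of 0.64. *Dnmt3b*, not called in wt, was at 104, 54.3 and 70.2 FPKM in BC KO and at 238, 124 and 268 in CB KO.

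The difference between the lines was unlike in wt libraries and KO clones in 9 of 11782 genes tested for an interaction of line and genotype (0.0764%). At an unadjusted edgeR p under 0.05 there were 1908. The test counted the first and second BC KO clones as separate and was not repeated under other settings. Effects of the edit and of single clones cannot be told apart in these libraries. *Meg3*, *Rian*, *Mirg* and *Rtl1*, 4 neighbours in the *Dlk1-Meg3* domain, were among the 9. *Meg3* was at 0.0226, 0.0597 and 0.026 FPKM in the BC KO clones and at 28.5, 21.8 and 23.7 FPKM in the CB KO clones, so its difference between lines was larger in KO than in wt (interaction 6.24 on the log2 scale, edgeR adjusted p = 0.00016). *Rian* was at most 0.0552 FPKM in BC KO and at least 30.2 FPKM in CB KO. The study itself reported lower *Meg3* and *Rian* by RT-PCR in all its male BC KO clones, while CRISPR-treated clones without the edit kept both RNAs. It did not verify changes of maternally expressed imprinted genes in the CB cross, and names clonal or strain effects as possible. *Egln3* was at 19.7, 19.5 and 22.1 FPKM in BC KO and at 16.1, 17.2 and 13.2 in CB KO, a smaller difference than in wt (interaction 1.45, edgeR adjusted p = 0.0334).

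**Figure D5:**
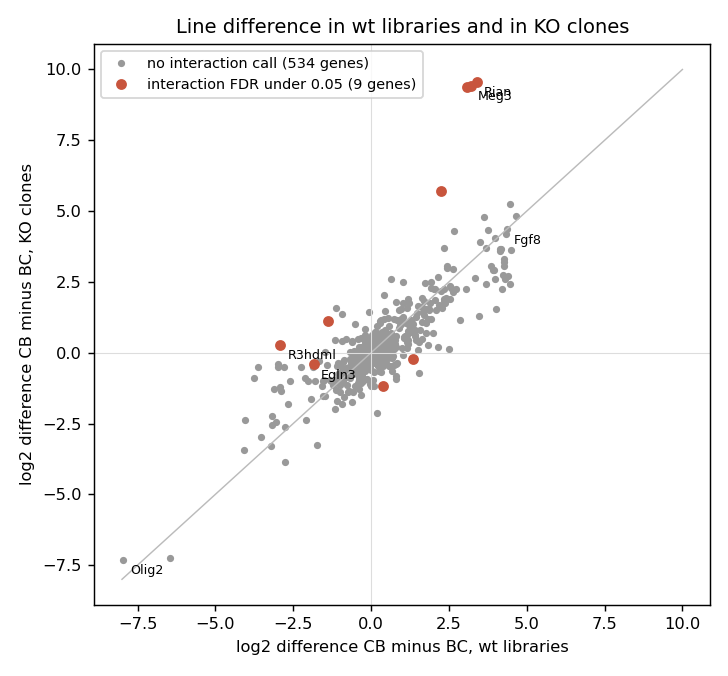
Log2 difference CB minus BC in wt libraries (horizontal) against that in KO clones (vertical) for 543 genes named or listed here that are counted alike and lie off chromosomes 1 and 8, with the 9 genes of the interaction in red and a line of equal differences. *Meg3* and *Rian* stand far above the line, and *Olig2* and *Fgf8* lie near it.

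The female BC wt libraries come from another BC line and differ in sex, so their values stand beside the others without a test. Of the 2150 genes counted alike and called higher in CB wt, the female level was nearer to the male BC level in 1358 (63.2%) and nearer to the CB level in 792 (36.8%). Of the 1185 called lower, it was nearer to male BC in 804 (67.8%) and to CB in 381 (32.2%). *T* was at 1.39 and 1.28 FPKM, *Fgf5* at 0.202 and 0.171 and *Tagln* at 10.7 and 10.6 FPKM in the female libraries, below both male lines. *Sox2* was at 440 and 440 FPKM, near male BC. Other genes were nearer to CB than to male BC. *Olig2* was at 0.239 and 0.215 FPKM, *Gli1* at 5.68 and 5.91 and *Slc2a3* at 537 and 510 FPKM in the female libraries. *Meg3*, at 31.0 and 29.4 FPKM there, was above both male lines. High *Olig2* and *Gli1* were thus seen in the male BC libraries and not in the female BC ones.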

How the data were processed

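RNA was sequenced from male BC and CB wt ES cells (2 libraries each), 6 male KO clones and a female BC line (2 libraries). The authors made TruSeq V2 libraries, which do not mark strand, and mapped single-end reads with TopHat and bowtie (Bowtie2 2.2.5 in the submitters' processing notes) to the mm10 genome and to a pseudo-*cast* genome. They deposited estimated counts of fragments per gene and library for each genome, for either genome, and for fragments with BL6 or *cast* SNPs, and per the labels no library was pooled. How the counts for either genome were joined is not given in the sources used here. Depth per library was 51384489 to 83497935 fragments in the wt comparison, and intervals cover the spread between libraries only.

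Estimated counts for either genome were rounded and tested with edgeR 4.0.16 (R 4.3.3; glmQLFit and glmQLFTest, TMM, Benjamini-Hochberg over all 13828 genes tested) in genes above 1 TPM in at least 1 library. Gene lengths came from GENCODE models of GRCm38 for 23318 of 24346 genes, and 1028 without a match took the median length of 2283 bp. A call needed an FDR below 0.05 together with a 1.5-fold change or more. KO clones and the interaction of line and genotype were tested in the same way. BL6 shares used genes with at least 20 SNP fragments in each library. On simulated data of the wt comparison, 96% of 200 genes changed by 1 on the log2 scale were recovered among 13828 genes, with 0 unchanged genes called. Every simulated gene had the same dispersion (0.00307), so genes that vary more between replicates than others were not covered. Overlapping and antisense genes, and near-identical gene copies, cannot be told apart. The comparison, lists and named genes were chosen with earlier results of these data known. Named genes were the 12 called genes with the largest change in each direction at 5 TPM or more, the 3 such genes on each of chromosomes 1 and 8, up to 4 called members of each list in each direction, and textbook pluripotency genes. Other genes were named after their values were seen, namely the leading genes counted alike, lineage regulators, members that were not called, and members of the contractile and Hedgehog lists. Alternatives were other size factors, median centring, DESeq2 1.42.0, other filters, each genome alone, other sets of libraries for the variance, a replicate block and leaving out libraries. Values of some named genes are not reported here.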

Additional observations from a re-analysis of the deposited data

Results flagged for a closer look

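The line difference (log2, CB minus BC) differed between KO clones and wt cells in 9 genes by edgeR's interaction test, with adjusted p between 2.44e-06 and 0.0454. All 9 were selected by that test from 11782 genes, and no explanation was tested.

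Neighbouring genes of the imprinted *Dlk1-Meg3* domain made up 4 of the 9, with interactions of 6.235 for *Meg3*, 6.183 for *Rian*, 6.297 for *Mirg* and 3.461 for *Rtl1*. *Mirg*, a microRNA host RNA, was at 0.0362, 0.0382 and 0.0182 FPKM in the BC KO clones and at 22.4, 21.7 and 19.8 FPKM in the CB KO clones, against 1.73 and 1.68 in BC wt and 14.4 and 14.2 in CB wt. *Rtl1*, a retrotransposon-derived gene, was at most 0.0203 FPKM in BC KO and at least 0.642 FPKM in CB KO. The libraries do not mark strand, so antisense RNA over *Rtl1* would be counted with it, and its fragments are not given by allele. All 3 BC KO clones were thus lower than both BC wt libraries for these genes.

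For *Egln3* the interaction was 1.453, with a smaller difference between lines in KO clones. *R3hdml* (3.208) was at 5.21 and 6.36 FPKM in BC wt and 0.827 and 0.691 in CB wt, against 4.02, 2.05 and 3.12 in BC KO and 3.72, 4.04 and 3.44 in CB KO. The KO clones of the lines overlapped for *R3hdml*. *Gbp4*, an interferon-induced GTPase (2.491), was at 1.63 and 1.77 FPKM in BC wt and 0.602 and 0.697 in CB wt, but at most 0.511 in BC KO and at least 0.874 in CB KO, called in opposite directions in wt and KO. *Aldh6a1*, a mitochondrial dehydrogenase (-1.524), was at 4.09 and 4.42 FPKM in BC wt and 5.42 and 5.48 in CB wt, against 9.22, 9.73 and 8.33 in BC KO and 3.35, 4.28 and 4.52 in CB KO. *Srgap1*, a GTPase-activating protein (-1.563), was at 0.87 and 0.86 FPKM in BC wt and 2.16 and 2.21 in CB wt, and the KO clones of the lines overlapped.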

How the results depend on the processing

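Counts of genes called off chromosomes 1 and 8 stayed within 1.5 times of 2360 higher under every setting (1713 with a 5 TPM minimum to 2830 with no filter) and of 1271 lower under every setting but a 5 TPM minimum, which gave 790 of fewer genes tested. Median centring gave 2238 and 1398, and leaving out 1 wt library gave 2325 to 2423 and 1191 to 1287. On chromosome 8, 35 genes in place of 59 were called higher with the variance of all 12 libraries. In KO clones, leaving out 1 clone gave 442 to 771 higher calls in place of 910 and 234 to 576 lower calls in place of 629. Replicate numbers mark no pairing in the labels, and same-numbered libraries correlated at 0.145 in their deviations. With a replicate block, 2379 genes were called higher and 1300 lower. Over the named genes, 3015 values kept direction and call, 58 lost the call, 1 gained it (*Nanog* at 0.612 without BC wt replicate 2) and 10 reversed. Reversed log2 differences with BL6-genome fragments were -0.702 for *Atp5k*, -0.139 for *Idi1*, -0.648 for *Phgdh*, -0.767 for *Mif* and -0.180 for *Ftl1*, and with *cast*-genome fragments -1.791 for *Idi1* and -0.319 for *Mif*. *Col1a2*, never called, was at 0.019 with BL6-genome fragments and between -0.074 and 0.063 without 1 wt library. With the variance of all 12 libraries, 26 named genes lost the call, among them *Foxd3*, *Mixl1*, *Tbx3*, *Col1a1*, *Igf2*, *Peg10*, *H19* and *Isg15*, and the list counts of called genes were 13 of 46 higher for imprinted genes, 1 higher and 2 lower for neural genes, 2 higher for Nodal and BMP genes and 0 lower for formative genes. A 5 TPM minimum left 8 feeder markers and 4 primitive endoderm genes called higher. Causes were not tested. Depth limits genes under about 1 FPKM, which rest on few fragments.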
